A study of Mus musculus with 16 samples.

Results

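The 10 genes described here are the epidermal kallikreins Klk5, Klk6, Klk7, Klk8, Klk10, Klk11, Klk12, Klk13 and Klk14, secreted serine proteases of the skin, and Spink5, which encodes the inhibitor LEKTI. They are 10 of the 32989 gene identifiers in the count table. The list was chosen on biological role with results of these same data already known, and the rule does not say which values were used, so the levels and adjusted p-values below are given as descriptions of these libraries. 8 of the 10 genes were among the 19049 genes tested, and Klk11 and Klk14 had too few tags to be tested.

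Hair follicle stem cell (HFSC) organoids, a 3D-3C culture of mouse epidermal cells in which stem cells and their progeny keep each other in balance, were grown for 2 weeks from 4 wild-type C57BL/6J mice, whose age the labels do not give. They were left untreated or kept for 72 h with the acetylated polyamine N1-acetylspermidine (N1-AcSpd). All cells were sorted on α6 integrin and CD34, giving α6+/CD34− progenitors and α6+/CD34+ HFSCs from each mouse and condition, and thus 4 groups of 4 libraries. RNA-seq of 3′ ends used unique molecular identifiers (UMIs), so that a molecule gives 1 tag whatever its length, and tag levels of different genes were compared without a correction for length.

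In the epidermis, kallikreins are made as inactive precursors in the upper living layers and activate one another in a cascade after secretion. They then cut the corneodesmosomes, the protein rivets that hold cornified cells together, so that the outermost cells are shed. LEKTI, the product of Spink5, binds and blocks some of them, not all, in a pH-dependent way. Loss of SPINK5 causes Netherton syndrome, a disease of excessive shedding and barrier loss.

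The 9 kallikreins lie side by side on the plus strand of chromosome 7 (GRCm38, the assembly also named mm10). In order, the spans of the outermost genes were chr7:43690418-43695536 for Klk14 and chr7:43841971-43851181 for Klk5, with Klk13, Klk12, Klk11, Klk10, Klk8, Klk7 and Klk6 between them and the non-member Klk9 between Klk10 and Klk8. Spink5 lies elsewhere, on the plus strand of chromosome 18 from 43963235 to 44022501. The levels were not even along the cluster. The genes at the Klk5 side (Klk5, Klk6, Klk7, Klk8) and Klk10 carried nearly all tags, and Klk11, Klk12, Klk13 and Klk14 together made up a small part.

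**Figure D1:**
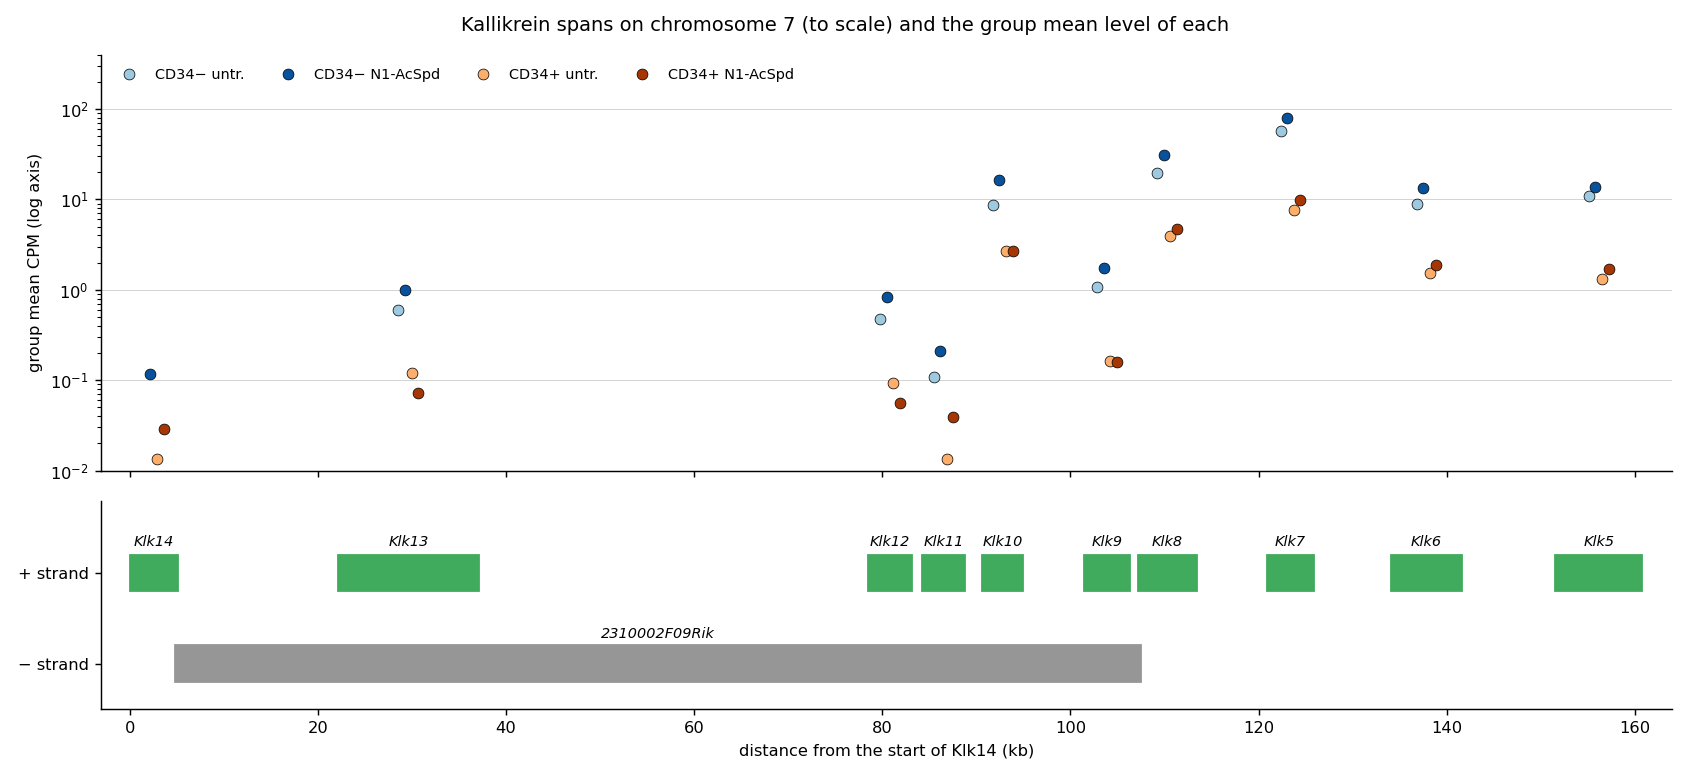
Spans of the kallikreins on chromosome 7, drawn to scale by distance in kb from the start of Klk14 (lower panel, plus strand genes in green and the minus strand gene 2310002F09Rik in grey), with the mean CPM of each gene in the 4 groups on a log axis (upper panel, 1 point per group, means of 4 libraries, points at 0 not drawn). Klk7 had the highest mean in each group, from 7.64 to 79.1 CPM, and Klk14, at the other end of the cluster, stayed at or below 0.118 CPM.

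The bases before the transcription starts of Klk7, the most abundant kallikrein, and of Klk8 and Klk10, whose groups stood apart under N1-AcSpd, are shown because these genes moved together across the libraries. The windows hold the 250 bases before the RefSeq start on GRCm38.p6, plus strand, at chr7:43811044-43811293 for Klk7, chr7:43797327-43797576 for Klk8 and chr7:43780804-43781053 for Klk10. Capitals mark TTAAAA, read on both strands, whose first base is 26 bases before the start in Klk8 and 17 bases before it in Klk10.
Klk7: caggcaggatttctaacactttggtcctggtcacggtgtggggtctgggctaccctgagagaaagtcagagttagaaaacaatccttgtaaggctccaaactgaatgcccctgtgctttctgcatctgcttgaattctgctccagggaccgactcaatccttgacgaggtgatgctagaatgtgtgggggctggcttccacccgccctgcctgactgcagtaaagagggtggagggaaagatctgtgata
Klk8: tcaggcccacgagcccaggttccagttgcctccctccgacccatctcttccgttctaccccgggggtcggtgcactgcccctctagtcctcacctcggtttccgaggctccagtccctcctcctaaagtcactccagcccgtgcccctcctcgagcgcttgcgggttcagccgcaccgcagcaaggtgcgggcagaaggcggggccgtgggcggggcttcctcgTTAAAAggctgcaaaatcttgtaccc
Klk10: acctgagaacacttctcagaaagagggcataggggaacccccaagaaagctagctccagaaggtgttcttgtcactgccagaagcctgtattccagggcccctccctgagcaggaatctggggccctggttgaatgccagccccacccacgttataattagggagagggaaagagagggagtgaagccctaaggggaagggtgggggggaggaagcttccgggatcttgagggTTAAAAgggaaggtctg
All 9 kallikreins had at least 1 RefSeq start, 11 in all. TTAAAA was added after these sequences were read, and it was in 4 of the 11 windows and in 17.7% of all 32851 windows of that length (27025 genes). Besides Klk8 and Klk10, it was 233 bases before a start of Klk11 and 68 bases before a start of Klk6. Since the letters were picked from these sequences, their share among the members cannot serve as a test. The TATA box TATAAA, the AP-1 letters TGANTCA, the Grainyhead-like letters AACCGGTT and the KLF4 letters CACACCC, searched on both strands, were in none of the 11 windows. They were in 12.4%, 6.75%, 0.116% and 6.93% of all windows, and their absence says only that these letters are not within 250 bases of a start.

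Library totals ran from 15480075 to 29074855 UMIs, and levels are given as CPM, counts scaled to a common total, with totals corrected by TMM, which aligns the bulk of the genes between libraries. The N1-AcSpd α6+/CD34− libraries, at 25202264 to 29074855 UMIs, were deeper than all untreated α6+/CD34− libraries, at 16179323 to 24451336. Cd34 itself followed the sort, at 2.88 to 3.65 CPM in the α6+/CD34− libraries and at 43.4 to 64.1 CPM in the α6+/CD34+ libraries. The 9 HFSC markers summed to 147 to 163 CPM in untreated and 124 to 133 CPM in N1-AcSpd α6+/CD34− libraries, and to 531 to 695 and 433 to 624 CPM in the α6+/CD34+ libraries. Of these 9, 7 were called higher and 1 lower in HFSCs in both conditions (edgeR, adjusted p under 0.05). The 5 basal keratinocyte markers summed to 6102 to 7311 CPM in all libraries. The 3 inner bulge or companion layer markers summed to 3059 to 4023 CPM in the α6+/CD34− and 1672 to 2209 CPM in the α6+/CD34+ libraries. Of the 2 of them that were tested, 1 was called lower and 0 higher in HFSCs in both conditions (edgeR, adjusted p under 0.05). The median log2 fold changes of these 2 were -0.21 and -0.33. The 2 sebocyte markers in the table summed to 18.4 to 28.4 and 39.6 to 49.1 CPM. They went opposite ways, with 1 called higher and 1 lower in HFSCs in both conditions. Fibroblast markers reached 1.52 CPM and immune markers 2.09 CPM at most, with Lyz2 at 0 in 3 of the 4 groups. Melanocyte markers summed to 9.39 to 12.6 CPM, with Tyr at 0 in the untreated α6+/CD34− group and Tyrp1 at 0 in both α6+/CD34+ groups. The endothelial list rested on Pecam1, at 1687 to 2055 CPM, while Kdr reached 0.36 CPM.

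Among the members, Spink5 and Klk7 were the most abundant. In untreated α6+/CD34− progenitors, mice 1 to 4 gave 84.7, 65.1, 95.7 and 92.3 CPM of Spink5 and 48.0, 46.5, 69.6 and 65.5 CPM of Klk7. The library ranges of these genes overlapped, and both stood above Klk8, at 16.1, 19.0, 22.3 and 20.4 CPM. Klk5, Klk6 and Klk10 came next, at means of 11.0 ± 2.87, 8.79 ± 2.06 and 8.61 ± 1.89 CPM (SD, n = 4), with overlapping ranges. Klk13 and Klk12 were at 0.594 ± 0.182 and 0.475 ± 0.124 CPM, also overlapping. In N1-AcSpd progenitors and in both groups of α6+/CD34+ HFSCs the mean of Klk10 followed that of Klk8 in place of Klk5. In the HFSCs the mean of Klk6 was also above that of Klk5, with overlapping ranges. In the untreated HFSCs the range of Klk10, 2.22 to 3.42 CPM, did not overlap that of Klk6, 1.08 to 1.92 CPM.

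**Figure D2:**
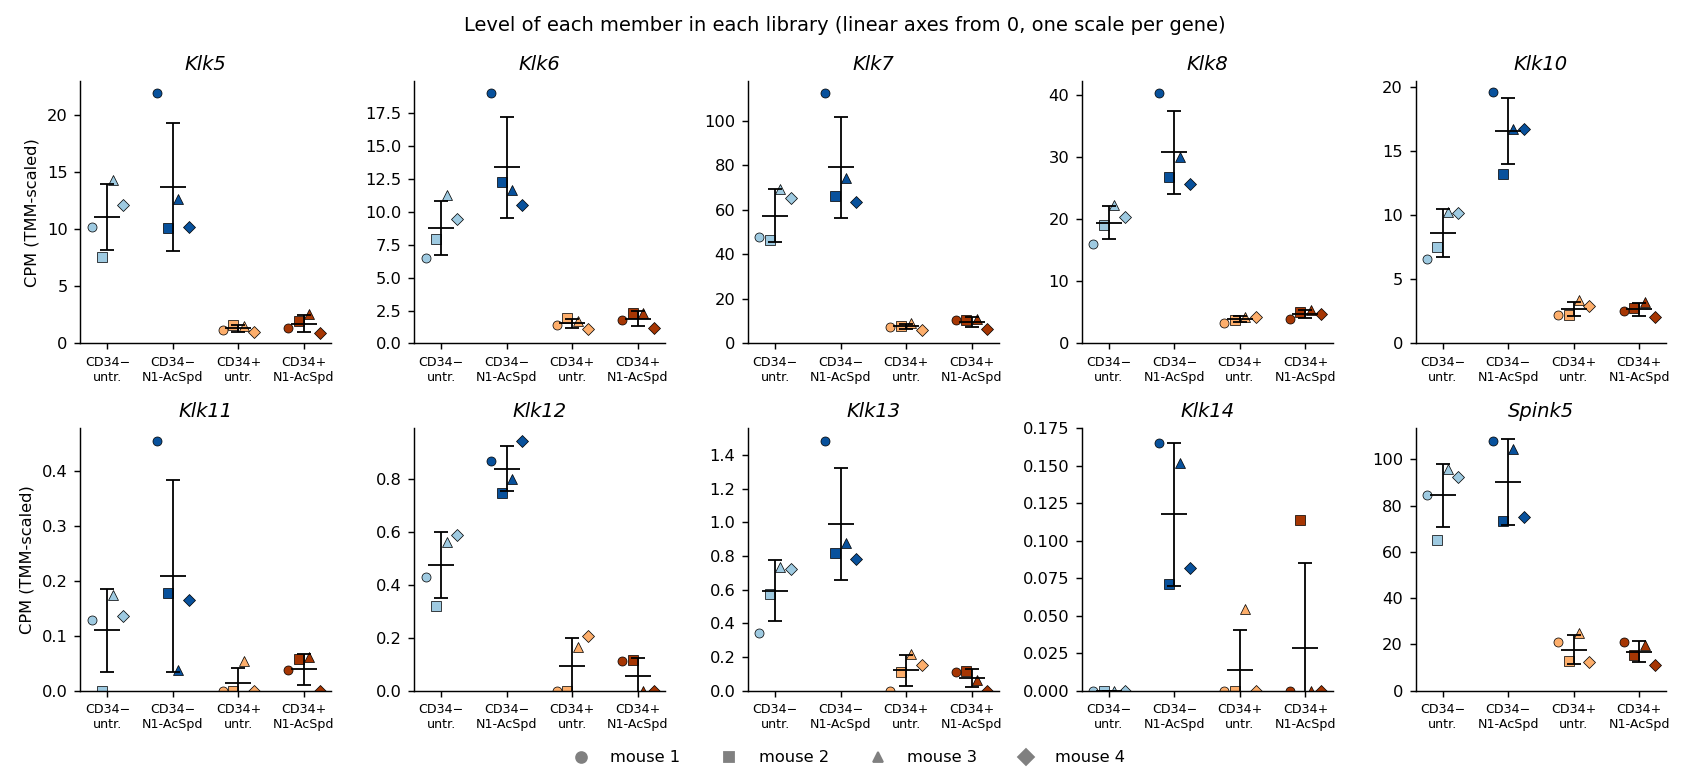
Level of each of the 10 members (CPM, linear axes that start at 0 and differ between genes) in the 16 libraries, with 1 symbol per mouse and bars for mean ± SD of 4 libraries. The α6+/CD34− libraries of Klk5, Klk6, Klk7, Klk8, Klk10, Klk12, Klk13 and Spink5 lie above all α6+/CD34+ libraries, and Klk10 is higher in the N1-AcSpd than in the untreated α6+/CD34− libraries.

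Klk7 alone gave 53.8% ± 1.32 of all kallikrein tags in untreated progenitors, 50.7% ± 1.12 in N1-AcSpd progenitors, 44.1% ± 3.43 in untreated HFSCs and 46.3% ± 4.00 in N1-AcSpd HFSCs (SD, n = 4). Klk8 followed with 18.5% to 23.3% as group means. The share of Klk10 was 8.07% ± 0.499 and 10.9% ± 1.70 in untreated and N1-AcSpd progenitors, and it was 15.5% ± 2.31 and 12.8% ± 0.625 in the HFSCs. In words, Klk10 made up a larger part of the kallikrein tags of HFSCs than of untreated progenitors, and the library ranges of those groups did not overlap (7.42% to 8.53% in untreated progenitors and 12.0% to 18.2% over both HFSC groups).

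The count of 1 neighbour depended on those of the members. 2310002F09Rik (ENSMUSG00000097178), a minus-strand processed transcript at chr7:43695209-43797958, spans Klk9, Klk10, Klk11, Klk12 and Klk13 whole and shares 0 exon bases with them. In all 16 libraries its count equalled the sum of these 5 kallikreins plus 1 to 20 tags. In the N1-AcSpd progenitors of mouse 1, for example, it was 624 against a sum of 605, and in the untreated HFSCs of mouse 4 it was 69 against 67. Over all libraries the totals were 3601 and 3464 tags, so 3.80% of its tags were not also counted for one of the 5, and Klk10 had 78.5% as many tags as it had. The tags were thus counted over whole gene spans and for both genes, although these lie on opposite strands, so strand did not separate them. The authors' use of strand is not stated, and tags of Klk10 and of 2310002F09Rik cannot be told apart. The antisense gene also reaches over 382 bases of Klk8, all exonic, and 328 bases of Klk14, of which 287 are exonic. No neighbour had a count within 5% of that of a member in every library, and none within 20%.

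**Figure D3:**
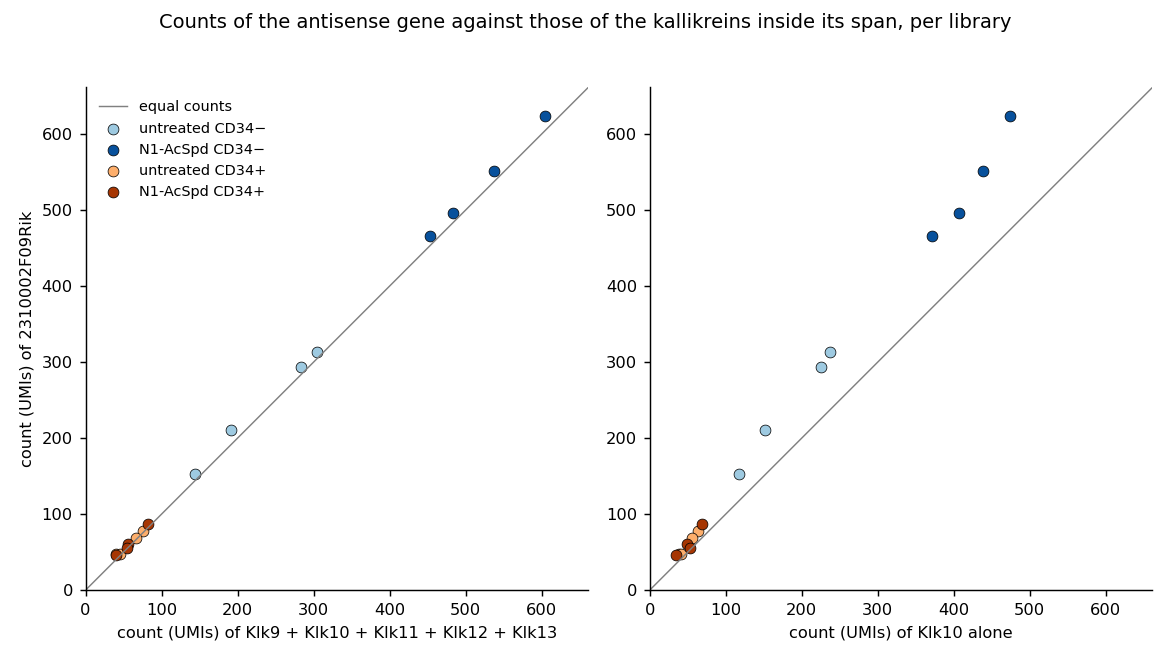
Count (UMIs) of the antisense gene 2310002F09Rik in each of the 16 libraries against the summed count of Klk9 to Klk13 (left) and against Klk10 alone (right), coloured by group, with a line of equal counts. The left points lie 1 to 20 tags above the line, and the right points lie further above it.

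The first comparison asked how α6+/CD34+ HFSCs differ from α6+/CD34− progenitors. All 8 tested members were lower in the HFSCs, both without and with N1-AcSpd. The decrease ran from 3.19-fold for Klk10 to 8.35-fold for Klk5 in untreated cells, and from 5.37-fold for Spink5 to 12.7-fold for Klk12 in N1-AcSpd cells. 8 of 8 passed an adjusted p of 0.05 (edgeR quasi-likelihood test, Benjamini-Hochberg over all genes) in untreated cells, where 16.1% of all tested genes were called lower, and 8 of 8 in N1-AcSpd cells, where 16.8% were. All 4 HFSC libraries lay below all 4 progenitor libraries for 8 of 8 members in both conditions, against 16.2% and 18.3% of all genes. The median log2 fold change over the 8 was -2.30 in untreated and -2.91 in N1-AcSpd cells, and that over all genes was 0.02 and -0.01. Fewer cells that express these genes and less RNA per cell cannot be told apart in sorted bulk samples.

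Klk7, a chymotrypsin-like protease that cuts corneodesmosin, was at 113, 66.2, 74.2 and 63.4 CPM in the N1-AcSpd progenitors of mice 1 to 4. In the HFSCs it was at 7.28, 7.74, 9.33 and 6.22 CPM without and at 10.6, 10.7, 11.1 and 6.52 CPM with N1-AcSpd. Every mouse had less Klk7 in its HFSCs than in its progenitors, and the groups were far apart. The log2 fold change was -2.91 (SE 0.23, adjusted p = 1.14e-06) in untreated and -3.02 (SE 0.23, adjusted p = 7.04e-07) in N1-AcSpd cells.

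Klk5, the trypsin-like protease that starts the cascade by activating itself and Klk7, was at 10.2, 7.54, 14.3 and 12.1 CPM in untreated and 21.9, 10.1, 12.7 and 10.2 CPM in N1-AcSpd progenitors. In the HFSCs it was at 1.14, 1.59, 1.52 and 1.03 and 1.37, 1.99, 2.58 and 0.881 CPM. Its lowest progenitor library, at 7.54 CPM, was above its highest HFSC library, at 2.58 CPM. Its log2 fold changes of -3.06 (SE 0.35, adjusted p = 1.62e-05) and -3.01 (SE 0.34, adjusted p = 1.35e-05) were close to those of Klk7.

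Klk6 and Klk8 are trypsin-like proteases that were first described in the nervous system and are also made in skin. Klk6 was at 6.50, 7.92, 11.3 and 9.43 CPM in untreated and 19.0, 12.2, 11.6 and 10.5 CPM in N1-AcSpd progenitors, and at 1.42, 1.92, 1.68 and 1.08 and 1.78, 2.28, 2.33 and 1.18 CPM in the HFSCs. Klk8 was at 40.4, 26.9, 30.0 and 25.8 CPM in N1-AcSpd progenitors and at 3.30, 3.79, 4.23 and 4.27 and 3.86, 5.07, 5.40 and 4.70 CPM in the HFSCs. Neither gene had a progenitor library as low as any HFSC library. Klk6 fell by 5.75-fold (log2 -2.52, SE 0.27, adjusted p = 8.32e-06) in untreated and 7.06-fold in N1-AcSpd cells. Klk8 fell by 4.98-fold (log2 -2.32, SE 0.16, adjusted p = 4.73e-07) and 6.47-fold.

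Klk10, a kallikrein first named as a gene of normal breast epithelium, was at 6.54, 7.47, 10.3 and 10.2 CPM in untreated and 19.6, 13.2, 16.7 and 16.7 CPM in N1-AcSpd progenitors. In the HFSCs it was at 2.22, 2.25, 3.42 and 2.88 and 2.56, 2.79, 3.25 and 2.06 CPM. The 4 groups fell on 3 levels, with the HFSC groups overlapping each other, the untreated progenitors above them and the N1-AcSpd progenitors highest. Its log2 fold change in HFSCs was -1.68 (SE 0.19, 95% interval -2.09 to -1.26, adjusted p = 2.02e-05) in untreated and -2.63 (SE 0.20, -3.06 to -2.21, adjusted p = 6.09e-07) in N1-AcSpd cells.

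Klk12 and Klk13 rested on few tags. In untreated progenitors of mice 1 to 4, Klk12 had 10, 5, 13 and 13 tags and Klk13 8, 9, 17 and 16. In N1-AcSpd progenitors they had 21, 21, 21 and 23 and 36, 23, 23 and 19 tags. In the HFSCs, Klk12 had 0, 0, 3 and 4 tags without and 3, 2, 0 and 0 with N1-AcSpd, and Klk13 had 0, 2, 4 and 3 and 3, 2, 1 and 0. No HFSC library had more than 4 tags of either. The log2 fold changes in HFSCs were -2.28 (SE 0.82, adjusted p = 0.0478) and -3.66 (SE 0.86, adjusted p = 0.00426) for Klk12 in untreated and N1-AcSpd cells, and -2.24 (SE 0.65, adjusted p = 0.0168) and -3.63 (SE 0.68, adjusted p = 9.06e-04) for Klk13. The untreated call of Klk12 was lost with the mouse as a block (adjusted p = 0.0723), with library totals as scaling (0.0564), with no filter on low counts (0.0815), with only the compared groups in the fit (0.0922) and in 16 of 20 runs that left out a library or a mouse (0.0326 to 0.153 over the 20), among them all 8 that left out 1 progenitor library. That of Klk13 was lost without mouse 2 (0.0930) and without mouse 3 (0.0572).

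Spink5, the inhibitor, was at 108, 73.3, 104 and 75.2 CPM in N1-AcSpd progenitors and at 20.9, 12.6, 24.7 and 12.4 and 20.99, 15.3, 19.8 and 11.1 CPM in the HFSCs. Mice 1 and 3 had the higher Spink5 levels in both HFSC groups and in N1-AcSpd progenitors. The progenitor and HFSC libraries did not overlap. Spink5 fell by 4.79-fold (log2 -2.26, SE 0.26, adjusted p = 2.09e-05) in untreated and 5.37-fold (log2 -2.42, SE 0.26, adjusted p = 9.85e-06) in N1-AcSpd cells.

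Klk11 and Klk14, both trypsin-like, were at the limit of detection. Klk11 had 35 tags in all 16 libraries, of which 10 were in untreated and 21 in N1-AcSpd progenitors, 11 of the latter in mouse 1. In the HFSCs it had 1 and 3 tags. Klk14, a substrate and activator of Klk5 in the cascade, had 15 tags, of which 12 were in N1-AcSpd progenitors (4, 2, 4 and 2 in mice 1 to 4). It had 0 tags in the 4 untreated progenitor libraries, which allows up to 3 counts over the group or 0.0341 CPM of the unscaled totals, and the 12 tags in N1-AcSpd progenitors came to 0.112 CPM on that scale. Limits of this kind cover counting error only. It had 1 and 2 tags in untreated and N1-AcSpd HFSCs. These counts have no test, and 287 exon bases of Klk14 lie under the antisense gene.

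Other genes of the upper epidermal layers were lower in HFSCs too. Of the 6 suprabasal keratinocyte markers, all 6 were called lower in both conditions, and their summed level was 1001 to 1348 CPM in untreated and 1213 to 1527 CPM in N1-AcSpd progenitors against 280 to 303 and 293 to 382 CPM in the HFSCs. None of them was at 0 in any group. Their part in the difference of the kallikreins was not tested. Of 19 tested genes of upper layer differentiation, a list that holds all 6 of these markers, 19 were called lower in both conditions, among them Calm4, a calmodulin-like protein of the epidermis (log2 -2.87 untreated, adjusted p = 1.27e-06), and Lce3e, a protein of the late cornified envelope (-2.76, adjusted p = 3.90e-05). The medians of that list, -2.29 and -2.27, can be set beside -2.30 and -2.91 for the 8 members and 0.02 and -0.01 for all genes.

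A corneodesmosome list held desmosome and corneodesmosome proteins and other genes linked to these proteases, not all of them known substrates. Of its 11 tested genes, 9 were called lower and 0 higher in both conditions (medians -1.80 and -1.90). Among them were the desmogleins Dsg1a, from 21.9 ± 6.61 to 3.31 ± 0.320 CPM in untreated cells (SD, n = 4), and Dsg1b, from 11.1 ± 2.78 to 1.72 ± 0.270 CPM, close copies between which tags may have been split. Of 14 tested skin serine proteases and inhibitors outside the kallikrein family, 8 were called lower and 1 higher in untreated cells, and 9 and 1 in N1-AcSpd cells (medians -0.49 and -0.67). Tmprss4, a membrane-bound serine protease, fell from 19.7 ± 3.64 to 4.09 ± 0.974 CPM, and Tmprss13, of the same family, from 9.58 ± 0.306 to 6.34 ± 0.312 CPM. Of 27 other kallikreins of the cluster, 4 were in the table and 1, Klk9, was tested. Klk9 was called lower in both conditions (log2 -2.69 and -3.40), at 1.07 ± 0.331 CPM in untreated progenitors and 0.161 ± 0.0729 CPM in untreated HFSCs.

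**Figure D4:**
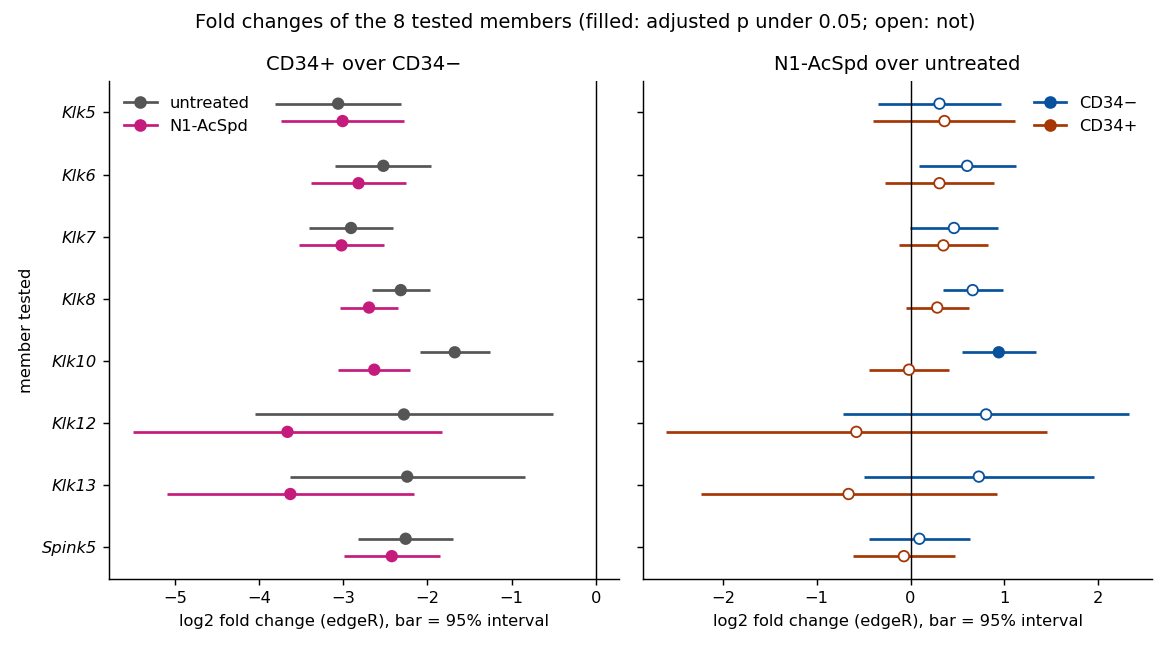
Log2 fold changes with 95% intervals (edgeR, 16 libraries in 1 fit) of the 8 tested members between HFSCs and progenitors (left, untreated and N1-AcSpd) and between N1-AcSpd and untreated cells (right, α6+/CD34− and α6+/CD34+), filled where the adjusted p was under 0.05. All left values lie below 0 and are filled, from -1.68 to -3.66, and Klk10 in α6+/CD34− cells, at 0.94, is the only filled value on the right.

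The second comparison asked what N1-AcSpd changed in α6+/CD34− progenitors. Klk10 rose 1.92-fold, and it was the only member called. The other 7 tested members had positive log2 fold changes from 0.09 for Spink5 to 0.81 for Klk12 and were not called. 1 of 8 members was called higher, where 0.373% of all genes were, and 3 of 8 (Klk6, Klk8 and Klk10) had an unadjusted p under 0.05 with a higher level, where 7.23% of all genes did. For 4 of 8 (Klk8, Klk10, Klk12 and Klk13) all 4 N1-AcSpd libraries lay above all 4 untreated ones, as for 4.91% of all genes. The median log2 fold change of the 8 was 0.63 and that of all genes 0.00. These libraries also enter the comparison of HFSCs with progenitors, so a higher level in N1-AcSpd progenitors appears in both.

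Klk10 went from 8.61 ± 1.89 to 16.5 ± 2.60 CPM (SD, n = 4) and was higher in 4 of 4 mice, from 6.54 to 19.6 CPM in mouse 1 and from 7.47 to 13.2 CPM in mouse 2. The log2 fold change was 0.94 (SE 0.18, 95% interval 0.54 to 1.34, adjusted p = 0.0420). 2310002F09Rik was called as well (log2 0.87, adjusted p = 0.0456), with most of its tags being those counted for Klk10. The fold change of Klk10 stayed between 0.74 and 1.04 in all 20 runs that left out a library or a mouse, but the call did not: it was lost in all 8 runs without 1 progenitor library (adjusted p = 0.0592 to 0.120), in all 4 without a mouse (0.138 to 0.238) and in 4 of 8 without 1 HFSC library (0.0405 to 0.0598 over the 8). It was also lost with only the 8 progenitor libraries in the fit (0.102) and with no filter on low counts (0.0808), and kept with the mouse as a block (0.0233) and in DESeq2 (1.31e-04).

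Klk8 went from 19.4 ± 2.63 to 30.8 ± 6.68 CPM with groups that did not overlap, higher in 4 of 4 mice, and did not pass (log2 0.66, SE 0.15, adjusted p = 0.0686), although it did in DESeq2 (adjusted p = 0.00242). Klk6 reached 0.60 (SE 0.24, adjusted p = 0.287), with 4 of 4 mice higher and overlapping groups. For Klk7 it was 0.46 (SE 0.22, adjusted p = 0.367) and for Klk5 0.31 (SE 0.30, adjusted p = 0.764). The N1-AcSpd library of mouse 1 was the highest of its group for Klk5, Klk6, Klk7, Klk8, Klk10, Klk13 and Spink5, with 216.5 CPM of summed kallikreins against 128.5 to 147.1 CPM in the other mice. Without it, the value of Klk5 was -0.01, that of Klk6 0.38, that of Klk7 0.24 and that of Klk13 0.47, and that of Klk10 was 0.85. Klk12 and Klk13 had 0.81 (SE 0.71) and 0.73 (SE 0.57), on 41 and 86 tags of Klk12 and 50 and 101 tags of Klk13 over the untreated and N1-AcSpd groups. The value of Klk13 was 0.28 with mouse 1 left out of all groups.

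Spink5 differed by a log2 of 0.09 (SE 0.25, 95% interval -0.44 to 0.63, adjusted p = 0.953), at 84.4 ± 13.7 CPM in untreated and 90.2 ± 18.4 CPM in N1-AcSpd progenitors, with overlapping groups. The interval leaves room for changes of either sign. Of the 45 tested genes of the 4 other lists, edgeR called 0 under N1-AcSpd in progenitors. 11 of the 45 had an unadjusted p under 0.05, all of them higher, where 7.23% of all genes did. DESeq2 called 6 (Cdsn, Dsc2, Ivl, Lce3e, Sbsn and Slpi) and 2.93% of all genes. In HFSCs edgeR called 0 of the 45, 9 had an unadjusted p under 0.05 (7 of them higher, where 6.78% of all genes did) and DESeq2 called Ivl and 2.22% of all genes. The upper layer list had a median log2 fold change of 0.34 in progenitors, the proteases and inhibitors outside the family 0.23 and the corneodesmosome list 0.05. Lce3e had the largest value among the genes named from these lists (log2 1.04, SE 0.32, adjusted p = 0.153).

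Cell type markers were set beside these values in the progenitor groups. The 6 suprabasal markers had a median log2 fold change of 0.23 under N1-AcSpd, and edgeR called 0 of them, with 3 (Ivl, Sbsn and Lor) at an unadjusted p under 0.05, while DESeq2 called Ivl and Sbsn. Krtdap, at 617 to 949 and 732 to 931 CPM in untreated and N1-AcSpd progenitors, overlapped, as did Krt1, Krt10 and Lor, and the summed level of the 6 overlapped too. Ivl (involucrin), at 26.5 to 37.3 and 38.9 to 60.3 CPM, and Sbsn (suprabasin), at 314 to 349 and 385 to 511 CPM, did not overlap and were named after their values were seen (unadjusted p = 6.03e-04 and 9.08e-04, adjusted p = 0.0686 and 0.0779 by edgeR). The 9 HFSC markers had a median of -0.35, and their summed levels in the untreated and N1-AcSpd progenitors, given above, did not overlap. That sum includes Itga6, the gene of the α6 integrin on which both cell types were sorted. Itga6 was at 58.1 to 68.9 CPM in untreated and 52.3 to 58.4 CPM in N1-AcSpd progenitors, and lower, at 45.9 to 53.0 CPM, in untreated HFSCs. 1 of the 9, Nfatc1, a transcription factor of quiescent HFSCs, was called lower (log2 -0.35, adjusted p = 0.0480), where 0.241% of all genes were. Krt15 was at 35.7 to 42.7 and 27.3 to 33.1 CPM (adjusted p = 0.278). Not all of these markers fell. Lhx2 had a positive log2 fold change of 0.68 (edgeR, unadjusted p = 0.0348, adjusted p = 0.323), and Cd34 had 0.03. The library totals of these groups did not overlap either, as given above. In HFSCs under N1-AcSpd, where Klk10 had -0.02, the suprabasal median was 0.31 and the HFSC marker median -0.11, with 0 called by edgeR. Ivl, at 8.59 to 10.3 CPM untreated and 13.2 to 16.9 CPM with N1-AcSpd, did not overlap there either. Its log2 fold change was 0.60 (edgeR, unadjusted p = 6.23e-04, adjusted p = 0.0908). Krt15 had -0.39 (unadjusted p = 0.0132, adjusted p = 0.251), Sbsn 0.13 and Nfatc1 -0.05. The part of these markers and of depth in the difference of Klk10 was not tested.

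In α6+/CD34+ HFSCs, no member was called under N1-AcSpd. 0 of 8 members passed the adjusted threshold in edgeR, where 0.189% of all genes were called higher and 0.136% lower. 0 of 8 had an unadjusted p under 0.05, where 6.78% of all genes did in the higher direction, and for 0 of 8 the N1-AcSpd libraries lay above all untreated ones, as they did for 3.38% of genes. DESeq2 called 0 of the 8 as well, and 2.22% of all genes. 4 members had positive and 4 negative values, with a median of 0.13. Klk8 had 0.28 (95% interval -0.05 to 0.62), Klk7 0.35 (-0.12 to 0.82) and Klk10 -0.02 (-0.44 to 0.41). Spink5 had -0.07 (-0.61 to 0.47). The 95% intervals of these 4 genes include changes of either sign, and each HFSC library had 35 to 69 tags of Klk10 and 111 to 286 of Klk7.

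The interaction tested whether the HFSC to progenitor difference itself changed with N1-AcSpd. It was called for 0 of 8 members by edgeR and by DESeq2, which called 0% and 0.378% of all genes. At an unadjusted p under 0.05, 1 of 8 passed, where 4.19% of all genes did. That member was Klk10, with a difference of -0.96 on the log2 scale (SE 0.27, 95% interval -1.54 to -0.38, unadjusted p = 0.00337, adjusted p = 1), negative in 4 of 4 mice. For Klk7 the difference was -0.11 (-0.78 to 0.55), for Klk8 -0.38 (-0.84 to 0.09) and for Spink5 -0.17 (-0.93 to 0.60). A different response of Klk10 in the 2 cell types was thus not shown after adjustment.

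The balance of kallikrein and Spink5 RNA was described by the summed CPM of the 9 kallikreins per CPM of Spink5 in each library. The sum takes in all 9, whether or not LEKTI blocks their products, so it is not a ratio of LEKTI to its targets. The ratio was 1.04, 1.37, 1.35 and 1.29 in untreated progenitors of mice 1 to 4 and 2.01, 1.78, 1.41 and 1.71 in N1-AcSpd progenitors. In the HFSCs it was 0.734, 1.38, 0.837 and 1.28 without and 0.975, 1.52, 1.25 and 1.38 with N1-AcSpd. Each mouse had the higher ratio with N1-AcSpd, in both cell types, and the groups did not overlap in progenitors but did in HFSCs. On the log2 scale the mean difference was 0.45 in progenitors (SD over mice 0.37, n = 4) and 0.31 in HFSCs (SD 0.23). Between HFSCs and progenitors it was -0.30 (SD 0.35) in untreated and -0.44 (SD 0.41) in N1-AcSpd cells, with overlapping groups. The ratio was lower in the HFSCs of 3 of 4 mice in untreated and of 4 of 4 in N1-AcSpd cells. Mouse 3 had the smallest difference in progenitors, from 1.35 to 1.41, and mouse 1 the largest, from 1.04 to 2.01. A ratio of RNA tags says nothing of the activity of the secreted proteins, and a sum over chosen genes was given no test.

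**Figure D5:**
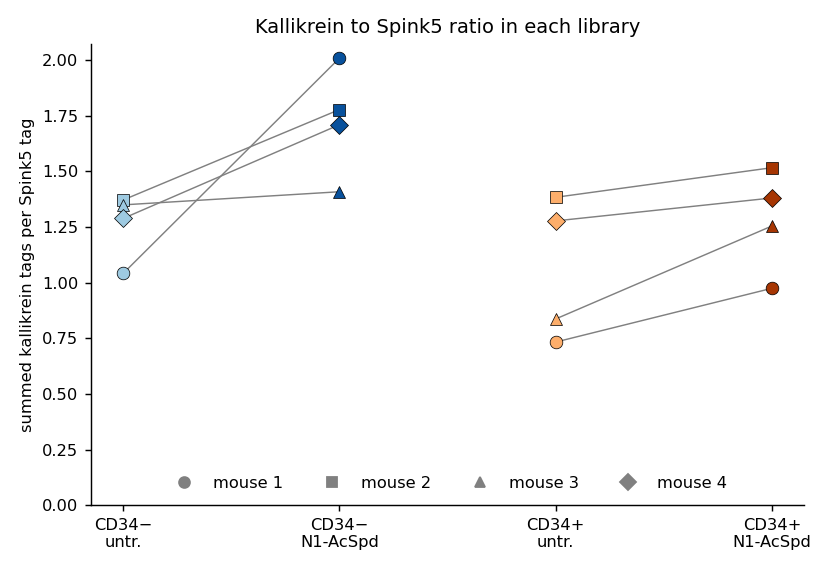
Summed kallikrein tags per Spink5 tag in each of the 16 libraries (axis from 0), by group, with symbols for mice and lines joining the untreated and N1-AcSpd libraries of a mouse. All 8 lines rise, and the N1-AcSpd progenitor libraries, at 1.41 to 2.01, lie above the untreated ones, at 1.04 to 1.37.

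Members moved together across libraries. Among the 5 kallikreins averaging 50 counts or more (Klk5, Klk6, Klk7, Klk8 and Klk10), Pearson's r of log2 CPM over the 16 libraries was 0.95 to 0.99 in the 10 pairs, which the gap between the cell types largely sets. On deviations from the 4 group means it was 0.59 to 0.90, highest for Klk6 with Klk7. Spink5 had r of 0.94 to 0.98 with these kallikreins over the 16 libraries and 0.16 to 0.75 on deviations, lowest with Klk8. The values describe libraries that share mice and sequencing depth and have no p.

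Over 12414 other genes that averaged 50 counts or more, the profile most like the mean of the tested kallikreins over 16 libraries was that of Cdsn (r = 0.993), which encodes corneodesmosin, a substrate of Klk5 and Klk7. Sprr1a, Cnfn, Serpinb6c and Gltp followed (r = 0.988 to 0.992). On deviations from group means the order was Sprr1a (0.958), Sprr2h, Gpr160, Sprr1b and Cdsn (0.896). The genes most like Klk10 over 16 libraries were Gm45413, Slc9a3r1, Cdsn, Cysrt1 and Madd (r = 0.976 to 0.980), and on deviations Cers3, Dlst, Aldh3b2, Gpr160 and Bpifc (0.856 to 0.865). Those most like Spink5 were Gm17099, Sdr16c5, Tmprss4, Cnksr3 and Il1f5 (r = 0.985 to 0.990), and on deviations Ptbp3, Sqle, Coq7, Areg and Gm43064 (0.913 to 0.972). The lists of Klk10 and Spink5, of 5 genes each, had no gene in common, although Klk10 and Spink5 themselves had r of 0.94 over 16 libraries. So short a list does not show that their profiles differ.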

How the data were processed

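The deposited values are counts of unique UMI tags per gene, made by the authors with FLEXBAR for demultiplexing, Kallisto (0.45.0 in the submitters' processing notes) on mm10, BEDTools for assigning tags to genes and R for counting. The annotation release and the use of strand are not given in the sources used here. A total of 156050 empty cells were read as 0, and the 94 identifiers without a symbol held 0.125% of counts. Symbols, spans and exons came from GENCODE M21 (GRCm38).

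Groups and mice came from the labels. A replicate number marks the same animal in all 4 groups, and the deviations of libraries of 1 mouse from their group means correlated at 0.0133 on average (-0.0689 to 0.0858, 24 pairs). Libraries of 1 group all differed beyond sampling noise (chi-square per degree of freedom at least 27.9).

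Genes averaging at least 5 counts (19049) entered edgeR 4.0.16 (R 4.3.3, TMM, quasi-likelihood, 1 mean per group, 16 libraries) and were called at a Benjamini-Hochberg adjusted p under 0.05. The procedure was also run on simulated data in which genes were changed between the cell types only. That run cannot say how often a treatment effect or an interaction would be found. Standard errors (SE) were derived from the fold change and its F statistic. All p-values are two-sided. CPM used TMM-scaled totals, and profiles used log2 CPM with a prior count of 2. Limits from counts cover counting error only. The study used DESeq2, run here (1.42.0) as an alternative beside other scalings, filters, a mouse block, the compared groups alone, a fold threshold and leaving out each library and mouse.

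All members were named. From each list the 2 largest increases and 2 largest decreases were named among genes called in the untreated cell type comparison that averaged 50 counts or more, and for likeness the 5 highest r among genes that neither are nor overlap a member. Members, lists and tests were chosen with earlier results of these data known. Motifs were sought in RefSeq windows of GRCm38.p6.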

Additional observations from a re-analysis of the deposited data

Results flagged for a closer look

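Of 39 sets of 4 libraries of 1 member in 1 group, 5 held a library whose gap to the nearest other exceeded Dixon's critical value for 4 values. For continuous, normally distributed values, chance marks about 1 in 20 such sets. Klk7 was low in the N1-AcSpd α6+/CD34+ library of mouse 4, at 6.52 CPM against 10.6 to 11.1 CPM in the other mice. Klk13 was high in the N1-AcSpd α6+/CD34− library of mouse 1, at 1.49 CPM (36 tags) against 0.780 to 0.875 CPM. The others rest on 1 or 2 tags where the remaining libraries had 0: Klk11 and Klk14 in the untreated α6+/CD34+ library of mouse 3 (0.0542 CPM each), and Klk14 in the N1-AcSpd α6+/CD34+ library of mouse 2 (0.114 CPM). A set in which only 1 library is above 0 always exceeds the critical value, so the rate given does not hold for such sets.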

How the results depend on the processing

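All 8 tested members stayed called lower in N1-AcSpd HFSCs under every alternative run, and 6 to 8 of 8 did in untreated HFSCs when a library or mouse was left out. There, 7 of 8 (all but Klk12) did with library totals, no filter on low counts, the mouse block and the compared groups alone. Under N1-AcSpd in progenitors, 1 member was called, against 0 with no filter on low counts, 0 with the compared groups alone, 2 in DESeq2 (Klk10 and Klk8) and 0 to 1 when a library or mouse was left out. In HFSCs and for the interaction 0 were called under every alternative. The mouse as a replicate block changed the call of Klk12 in untreated cells only (log2 -2.34, adjusted p = 0.0723); with this pairing 1 member stayed called under N1-AcSpd in progenitors, and the near-zero value of Klk10 in HFSCs turned from -0.02 to 0.00059, while the calls over all genes went from 117 to 351 in progenitors and from 62 to 152 in HFSCs. Over all genes DESeq2 called 558, 423 and 72 (interaction) against 117, 62 and 0, the fit without a filter 35 and 35, the compared groups alone 0 and 23, and a fold threshold of 0.5 on the log2 scale 27 and 19; that threshold left 2913 of 6123 and 3197 of 6347 calls between the cell types. Scaling by library totals moved the median of all genes to 0.14 and 0.11 between the cell types. Uncalled values that changed sign when a library or mouse was left out, given as ranges of the log2 value, were Klk5 (-0.048 to 0.50) and Spink5 (-0.012 to 0.22) under N1-AcSpd in progenitors, Klk10 (-0.12 to 0.14), Klk12 (-1.53 to 0.48) and Spink5 (-0.20 to 0.15) under N1-AcSpd in HFSCs, and the interaction of Klk5 (-0.32 to 0.44), Klk6 (-0.56 to 0.043), Klk7 (-0.22 to 0.12) and Spink5 (-0.30 to 0.069). The cause was not tested. Leaving out a mouse moved the kallikrein to Spink5 log2 difference under N1-AcSpd to 0.28 to 0.58 in progenitors and 0.22 to 0.38 in HFSCs. Low tag numbers limit Klk11, Klk12, Klk13 and Klk14.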
